A study of Mus musculus with 38 samples.

Results

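The genes described here carry the enzymes that keep the adenylate pool of muscle in balance: the AMP deaminases Ampd1, Ampd2 and Ampd3, adenylosuccinate synthetase and lyase (Adssl1 and Adsl), the adenylate kinases Ak1 and Ak4, ecto-5′-nucleotidase (Nt5e), xanthine dehydrogenase (Xdh) and muscle creatine kinase (Ckm). Their promoters were taken from a table of CAGE clusters (cap analysis of gene expression, which counts the 5′ ends of capped RNA) in mouse soleus, a postural muscle rich in slow fibers. A cluster belonged to a gene when its peak lay within 500 bp, on the same strand, of a GENCODE vM21 5′ end of that gene. This gave 8 clusters of 10819 in the table, from 7 of the 10 genes, and each of the 8 peaks lay within 100 bp of the 5′ end. Ampd2, Ak4 and Nt5e had no such cluster among those analysed here. Ampd3 had 2 promoters, Ampd3 P1 and Ampd3 P2, which are treated separately.

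All animals were male C57BL/6J mice, and each of the 38 libraries came from the soleus of 1 animal, sampled late in the dark phase. Experiment 1 (28 libraries) had 4 Pre mice (day 1, with food, before torpor), 8 Mid mice (day 2, food withdrawn at low ambient temperature, sampled in torpor or between bouts of it), 4 Post mice (day 3, food returned), 4 HiT mice (day 2, high ambient temperature), 4 Fed mice (day 2, food left in place at low temperature) and 4 Dep mice (day 2, food withdrawn, touched gently whenever oxygen consumption fell, to keep them from torpor). The sample labels, the design text and the study's methods differ on whether HiT or Fed mice had food. The methods are followed here, in which HiT mice were fasted and Fed mice were not. Experiment 2 (10 libraries from other mice) had 2 Pre, 5 Mid and 3 Post libraries and was sequenced on another platform. Libraries held 18257657 to 39176649 tags in experiment 1 and 9359994 to 20914855 in experiment 2. A value in TPM is the tags of a cluster per 1000000 tags of its library. Each tag is the 5′ end of an RNA, so TPM does not depend on transcript length. Genes are compared with each other only within an experiment. Slow and fast muscle markers were abundant in every library (summed TPM of the slow list 6503 to 29059, of the fast list 12247 to 41114). The fast list had the higher median sum in every group, but these sums over different genes are not shares of fibers. In whole muscle, fewer cells of a type and less RNA per cell cannot be told apart.

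As background, AMP deaminase converts AMP to IMP with release of ammonia, and adenylosuccinate synthetase and lyase return IMP to AMP with release of fumarate. These reactions form the purine nucleotide cycle. Adenylate kinase makes ATP and AMP from a pair of ADP molecules, and creatine kinase moves phosphate between phosphocreatine and ADP. Where AMP is removed rather than recycled, the purine ring leaves as inosine and hypoxanthine, which xanthine dehydrogenase oxidizes to xanthine and uric acid.

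On the mm10 assembly, Ampd3 P1 spanned chr7:110772529-110772962 on the plus strand, with its peak at base 110772739, near the annotated 5′ end of the transcript Ampd3-202 at 110772788. Ampd3 P2 spanned chr7:110767887-110769008 with its peak at 110768188, near the 5′ end of Ampd3-206 at 110768206. The other clusters were Ampd1 at chr3:103073951-103074136 (plus), Adssl1 at chr12:112619880-112620413 (plus), Adsl at chr15:80948439-80948692 (plus), Ak1 at chr2:32625388-32625588 (plus), Ckm at chr7:19410814-19411197 (plus) and Xdh at chr17:73950070-73950237 (minus). No cluster had a 5′ end of a second gene on its strand within the window.

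Upstream sequence was read from RefSeq windows of GRCm38.p6, the assembly that mm10 names. Windows were held for 8 of the 10 genes and covered 5 of the 8 promoters, those of Ampd3 P1, Adssl1, Adsl, Ak1 and Ckm. Of these, 3 are printed: Ampd3 P1, the promoter that changed most, and Adssl1 and Ckm, the 2 most active. All run 5′ to 3′ on the plus strand, with E-boxes (CANNTG) in capitals. For Ampd3 P1 the printed bases are chr7:110772354-110772603, which lie at -385 to -136 relative to the CAGE peak because the RefSeq start lies 135 bases upstream of that peak. For Adssl1 they are chr12:112619797-112620044 and for Ckm chr7:19410844-19411024.
Ampd3 P1: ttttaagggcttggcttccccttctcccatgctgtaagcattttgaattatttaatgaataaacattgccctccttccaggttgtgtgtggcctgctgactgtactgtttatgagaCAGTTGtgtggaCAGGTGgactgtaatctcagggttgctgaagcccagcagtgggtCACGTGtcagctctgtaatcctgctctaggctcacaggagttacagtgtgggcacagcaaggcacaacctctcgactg
Adssl1: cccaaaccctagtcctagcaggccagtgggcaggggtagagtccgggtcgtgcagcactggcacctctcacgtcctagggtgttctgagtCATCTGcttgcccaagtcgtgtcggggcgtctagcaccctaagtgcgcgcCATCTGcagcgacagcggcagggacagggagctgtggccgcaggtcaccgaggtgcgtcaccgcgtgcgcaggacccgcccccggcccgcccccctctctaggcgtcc
Ckm: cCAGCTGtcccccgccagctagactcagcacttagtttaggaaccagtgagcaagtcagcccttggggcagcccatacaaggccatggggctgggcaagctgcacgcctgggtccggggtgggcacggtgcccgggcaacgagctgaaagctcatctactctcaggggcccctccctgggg

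A search for 10 motifs was made on both strands, from 250 bases before to 50 bases after each RefSeq start. The Ampd3 P1 window held 3 E-boxes, starting at -269, -257 and -213 relative to the CAGE peak, and the nearest of them read CACGTG, the palindromic E-box that circadian clock factors bind. E-boxes occurred in 72.3% of 32851 windows and CACGTG in 7.15%. The window held no TATA box (TATAAA), no CCAAT box, no GC box (GGGCGG), no glucocorticoid receptor motif (TGTTCT), no FOXO core (GTAAACA), no CREB motif (TGACG), no ERR motif (AAGGTCA) and no MEF2 motif, which says only that these letters are not in it. The Ampd3 P1 window ended upstream of the CAGE peak, since the RefSeq start lies 135 bases before that peak. The bases just before the peak were therefore not searched. Adssl1 had 2 E-boxes, 2 GC boxes, 1 TGTTCT and 1 TGACG, and Adsl also had 2 GC boxes. The shares of all windows were 35.7% for the GC box, 18.97% for TGTTCT and 20.8% for TGACG. Of the remaining promoters, Ckm, Adsl and Ak1 had 1 E-box each. Of the 5 windows searched, only that of Ak1 held TATAAA, whose match started at -29 relative to its CAGE peak. That match overlapped a MEF2 motif, and the shares of all windows were 13.6% for TATAAA and 1.86% for MEF2.

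By mean level over the 28 libraries of experiment 1, Ckm was the most active promoter at 1053.6 TPM, followed by Adssl1 at 726.7, Ampd1 at 115.7, Ak1 at 98.4, Adsl at 70.1, Xdh at 38.1, Ampd3 P1 at 32.4 and Ampd3 P2 at 11.5 TPM. The order was not the same in experiment 2, where Ak1 gave 296.6 to 425.2 TPM and Ampd1 110.3 to 154.1 TPM. In the 4 Pre libraries of experiment 1, the muscle isoform Ampd1 gave at least 99.5 TPM, where neither Ampd3 promoter passed 11.1 TPM.

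The comparison of Pre with Mid asked which promoters changed between mice with food before torpor and fasted mice in or between bouts of torpor. These groups differed in food, torpor and day together, which cannot be told apart in this comparison. Ampd3 P1 rose 7.57-fold, and Xdh and Ampd3 P2 rose by smaller steps. The other 5 promoters (Ampd1, Adssl1, Adsl, Ak1, Ckm) did not pass the test. In all, 3 of 8 promoters were called, beside 30.2% of the 10776 clusters tested, and all 3 were higher in Mid, beside 15.4% of all clusters. The test here and below was edgeR's quasi-likelihood F test, with Benjamini-Hochberg adjustment over all clusters (FDR) and calls below 0.05. The median log2 fold change was 0.06 over the 8 promoters and 0.01 over all clusters.

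Ampd3 encodes the AMP deaminase first known from red blood cells. Ampd3 P1 stood at 9.78, 9.09, 8.02 and 10.9 TPM in the Pre libraries. In Mid it ranged from 17.8 to 106.1 TPM with a median of 73.5, and Mid 6, at 17.8, was the lowest by a wide margin, the other 7 lying between 50.7 and 106.1. Post libraries were back at 6.01, 8.61, 6.89 and 9.27 TPM. The Pre and Mid ranges did not overlap, nor did those of Mid and Post. The log2 fold change from Pre to Mid was 2.92 ± 0.27 (SE; edgeR FDR 3.53e-08), the 71st highest of 10776 clusters. From Mid to Post it was -3.16 ± 0.27 (edgeR FDR 5.27e-09). Red blood cell markers had a cluster for 5 of 6 genes. They summed to 3762 to 5625 TPM in Pre, 2371 to 4466 in Mid and 1661 to 2886 in Post. The median log2 fold change over their 7 promoters was -0.30 from Pre to Mid and -0.64 from Mid to Post. In experiment 2 the medians were 0.85 from Pre to Mid and -0.84 from Mid to Post. The part of these markers in the Ampd3 P1 result was not tested.

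Ampd3 P2, the upstream promoter of the gene, moved far less. It gave 10.7, 10.2, 10.1 and 11.1 TPM in Pre, 10.3 to 17.2 (median 12.5) in Mid and 7.70 to 10.4 in Post. The Pre and Mid ranges overlapped. Its log2 fold change was 0.35 ± 0.10 from Pre to Mid (edgeR FDR 0.00802) and -0.49 ± 0.10 from Mid to Post (edgeR FDR 0.000421). The rise was not called without TMM scaling (0.28, edgeR FDR 0.23) or in a fit of all 38 libraries (0.19, edgeR FDR 0.0677).

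The use of the 2 promoters therefore shifted. P1 made up 44.2 to 49.7% of the Ampd3 tags of both promoters in Pre, 63.2 to 89.9% in Mid and 43.8 to 47.5% in Post. The log2 ratio of P1 to P2 was -0.16 ± 0.13 in Pre (SD, n = 4) and 2.29 ± 0.72 in Mid (SD, n = 8). The difference was 2.45 with p = 0.00404 in a two-sided exact permutation test, the smallest p that the 495 regroupings allow. Because both clusters come from the same library, this ratio does not depend on scaling between libraries.

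**Figure D1:**
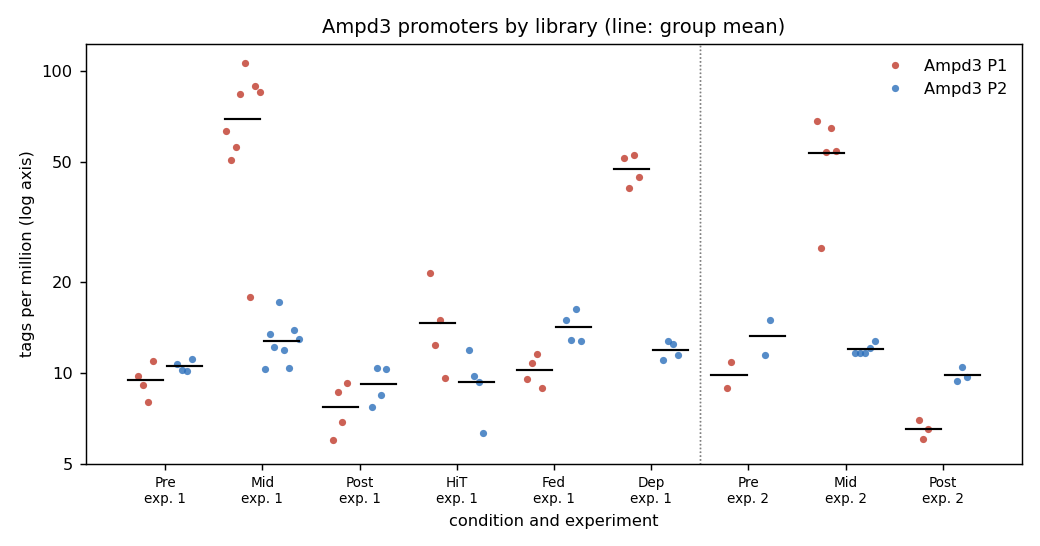
Level of the Ampd3 P1 (red) and P2 (blue) promoters in each of the 38 libraries, in TPM on a log axis, by condition and experiment (points: libraries; lines: group means). P1 reached 17.8 to 106.1 TPM in Mid and 40.9 to 52.4 in Dep of experiment 1 and 25.9 to 67.9 in Mid of experiment 2, and stayed at or below 21.4 in the other groups, while P2 lay between 6.30 and 17.2 throughout experiment 1.

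Xdh, whose enzyme forms uric acid near the end of purine breakdown, rose 1.48-fold. Its promoter gave 37.7, 35.5, 25.35 and 35.7 TPM in Pre, 32.3 to 54.3 (median 48.3) in Mid and 19.9, 26.7, 29.4 and 30.5 in Post. Mid 6 was again the lowest Mid library and was the only one within the Pre range. That library was also the lowest Mid library for Adsl, Adssl1, Ampd1 and Ckm, and its 10 most abundant clusters held 31.5% of its tags, the highest share in Mid. The Mid and Post ranges did not overlap. The log2 fold change was 0.56 ± 0.11 from Pre to Mid (edgeR FDR 0.000523) and -0.84 ± 0.12 from Mid to Post (edgeR FDR 4.12e-06). Endothelial markers, all 7 with a cluster, summed to 289 to 379 TPM in Pre, 281 to 391 in Mid and 288 to 351 in Post. Of their promoters 3 rose and 2 fell from Pre to Mid, and their part in the Xdh result was not tested.

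**Figure D2:**
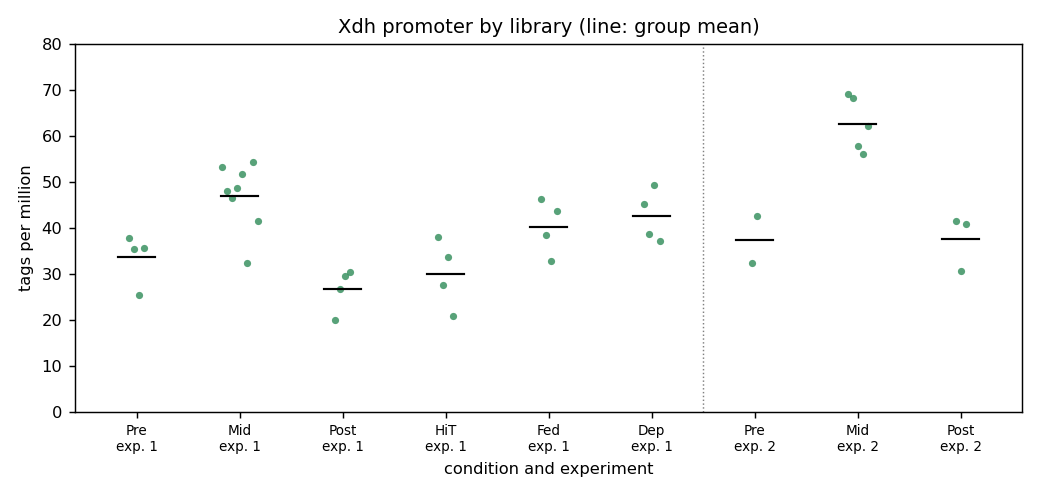
Level of the Xdh promoter in each library, in TPM from 0, by condition and experiment (points: libraries; lines: group means). Mid lay above Post without overlap in both experiments, at 32.3 to 54.3 against 19.9 to 30.5 TPM in experiment 1 and 56.0 to 69.1 against 30.6 to 41.5 TPM in experiment 2.

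From Mid to Post, when food was returned, the same 3 promoters (Ampd3 P1, Ampd3 P2, Xdh) were lower and the other 5 did not pass. These 3 of 8 stand beside 35.0% of all clusters called and 17.5% called lower. The Mid libraries are shared by this comparison and the previous one, so the 2 directions are not independent of each other. Between Pre and Post, 0 of 8 promoters were called by edgeR's quasi-likelihood test and 0 by DESeq2, beside 1.85% of all clusters. At an unadjusted p under 0.05 there were 2, Ckm with a log2 fold change of -0.25 ± 0.11 and Xdh with -0.28 ± 0.13.

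The muscle isoform Ampd1, which supplies most AMP deaminase activity of skeletal muscle, ranged from 99.5 to 152.9 TPM in Pre, 101.4 to 138.4 in Mid and 96.7 to 125.5 in Post. Its log2 fold change from Pre to Mid was 0.09 ± 0.08 (edgeR FDR 0.473). The 3 groups overlapped in experiment 1.

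The partner enzymes of the purine nucleotide cycle likewise overlapped between Pre and Mid in experiment 1. Adssl1, the muscle adenylosuccinate synthetase, ranged from 693.8 to 880.5 TPM in Pre and from 485.1 to 997.3 in Mid, a log2 fold change of -0.11 ± 0.14. Adsl, the lyase that acts after it, ranged from 68.3 to 81.0 in Pre and from 57.5 to 85.7 in Mid, with a log2 fold change of 0.03 ± 0.08.

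Both phosphotransfer enzymes showed the same overlap in experiment 1. Ak1, the main cytosolic adenylate kinase of muscle, gave 102.4 to 129.8 TPM in Pre and 75.9 to 113.1 in Mid, with a log2 fold change of -0.25 ± 0.12 (edgeR FDR 0.105). This value was called with upper-quartile scaling (-0.32, edgeR FDR 0.0391), with only the 2 groups in the fit (-0.28, edgeR FDR 0.0358) and in a fit of all 38 libraries (-0.26, edgeR FDR 0.0248). Ckm, the cytosolic creatine kinase of muscle, gave 1000.7 to 1392 TPM in Pre and 877.3 to 1281 in Mid, with a log2 fold change of -0.05 ± 0.09.

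**Figure D3:**
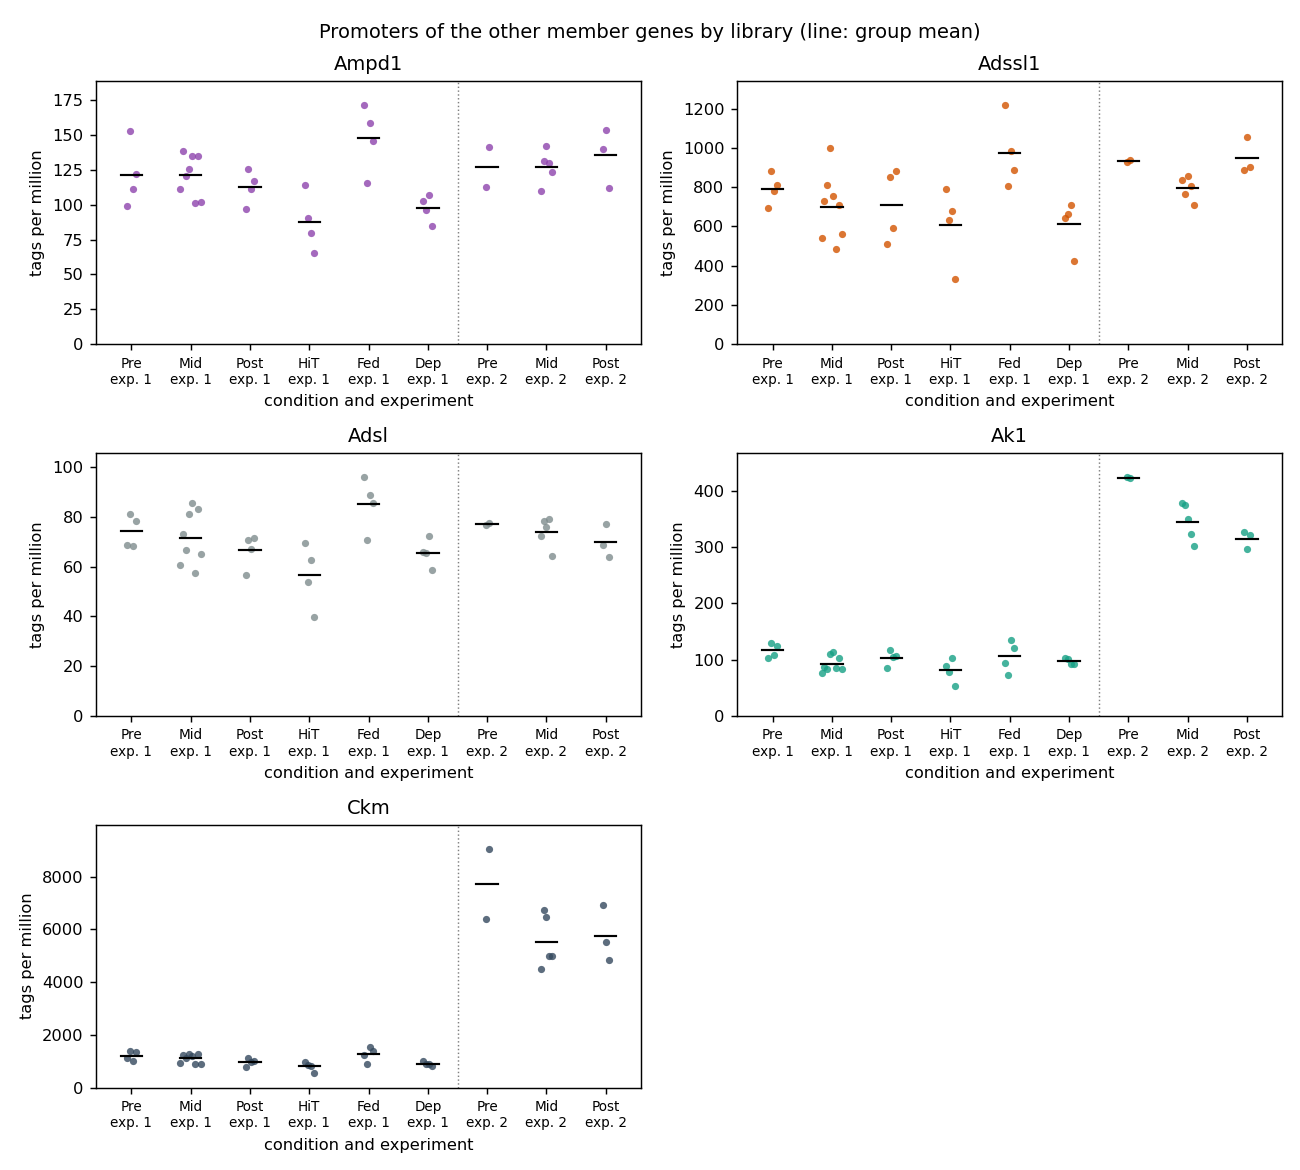
Levels of the Ampd1, Adssl1, Adsl, Ak1 and Ckm promoters in each library, in TPM from 0, with a panel for each promoter (points: libraries; lines: group means). Pre, Mid and Post overlapped for all 5 in experiment 1, and Ak1 and Ckm stood higher in every library of experiment 2 (296.6 to 425.2 and 4511 to 9064 TPM) than in experiment 1 (52.9 to 135.7 and 552.2 to 1533 TPM).

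The comparison of HiT with Mid set torpor beside fasting at high ambient temperature. The 2 groups differed in temperature and torpor together, which cannot be told apart in this comparison. Ampd3 P1 gave 21.4, 12.3, 14.9 and 9.63 TPM in HiT. All 4 values were below the other 7 Mid libraries, and only HiT 1, at 21.4, was above Mid 6. Its log2 fold change from HiT to Mid was 2.13 ± 0.25 (edgeR FDR 2.48e-07). In all, 6 of 8 promoters were higher in Mid, beside 41.0% of clusters called and 19.2% called higher. The others were Xdh with a log2 fold change of 0.54 ± 0.11, Ampd1 with 0.38 ± 0.09, Ampd3 P2 with 0.37 ± 0.10, Ckm with 0.37 ± 0.10 and Adsl with 0.24 ± 0.08. Apart from Ampd3 P1, their edgeR FDR ranged up to 0.0196, that of Adsl. Adssl1 (0.12 ± 0.14) and Ak1 (0.08 ± 0.12) did not pass. The HiT and Mid ranges overlapped for all 8 promoters, and the share of all clusters with overlapping ranges was not computed.

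The HiT libraries differed from the rest in cell markers. The macrophage list, 6 of 7 genes with a cluster, summed to 75.95 to 218.7 TPM in HiT and 28.8 to 43.9 in Mid, and all 6 of its promoters were lower in Mid. The slow muscle list summed to 6503 to 12452 TPM in HiT and 11160 to 18022 in Mid, with 6 of 22 promoters higher in Mid. Of the 20 fast muscle promoters 5 were higher in Mid and 3 lower. With a fast muscle marker score as a covariate, Ckm (0.26, edgeR FDR 0.0587) and Adsl (0.14, edgeR FDR 0.228) were no longer called. Adsl was also not called without TMM scaling, with only the 2 groups in the fit or without HiT 2. The part of these markers in the HiT results was otherwise not tested.

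Set beside Pre, HiT had 3 of 8 promoters called, beside 33.4% of clusters (18.5% higher in HiT and 14.9% lower). Ampd3 P1 was higher in HiT (log2 fold change 0.78 ± 0.27, edgeR FDR 0.0293). Ampd1 (-0.29 ± 0.10) and Ckm (-0.42 ± 0.11) were lower. For Ckm the ranges did not overlap, with 552.2 to 968.8 TPM in HiT against 1000.7 to 1392 in Pre. HiT 4, at 552.2 TPM, was the lowest HiT library for all 8 members, and its 10 most abundant clusters held 40.3% of its tags, the highest share of any library (Mid 6 followed with 31.5%). The other HiT libraries gave Ckm 828.0 TPM or more. On scaled counts the log2 fold change of Ckm stayed between -0.48 and -0.38 when any library was left out, and its call held. The macrophage promoters, 6 of 6, were higher in HiT in this comparison too. Of the fast muscle promoters 1 of 20 rose and 6 fell (median log2 fold change -0.27), 4 of 22 slow muscle promoters fell (median -0.23) and 3 of 7 red blood cell promoters fell. Their part in the falls of Ampd1 and Ckm was not tested beyond the fast muscle score. The Ampd3 P1 call was lost without TMM scaling, with the fast muscle score, and without Pre 2, Pre 3, HiT 1 or HiT 3. The Ampd1 call was lost with the fast muscle score and without Pre 2 or HiT 2.

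Fed and Mid mice shared the low temperature and differed in food and torpor together, which cannot be told apart in this comparison. Ampd3 P1 gave 9.52, 10.8, 11.5 and 8.91 TPM in Fed, with no overlap with Mid. The log2 fold change from Fed to Mid was 2.84 ± 0.27 (edgeR FDR 6.07e-08), the 30th highest of 10776. Ampd3 P2 did not follow, at 14.9, 12.8, 16.2 and 12.8 TPM in Fed and a log2 fold change of -0.04 ± 0.10. In all 3 of 8 promoters were called, beside 35.2% of clusters (16.6% higher in Mid and 18.6% lower). Xdh was higher in Mid (0.31 ± 0.11, edgeR FDR 0.0344), with Fed libraries at 46.3, 38.5, 32.7 and 43.6 TPM. Adssl1 was lower in Mid (-0.39 ± 0.14, edgeR FDR 0.0278), with Fed libraries between 806.3 and 1218 TPM.

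The calls of Xdh and Adssl1 in this comparison were lost without TMM scaling and with only the 2 groups in the fit, and each in 4 of 28 fits that left out a library. Red blood cell markers summed to 2718 to 12643 TPM in Fed and 2371 to 4466 in Mid, with 5 of 7 promoters lower in Mid, and their part was not tested. Relative to Pre, Fed had 1 of 8 promoters called, beside 11.2% of clusters (5.88% higher in Fed): Ampd3 P2, higher in Fed (0.39 ± 0.11, edgeR FDR 0.0288) with no overlap of the ranges. Leaving out a library ended that call in 5 of 28 fits.

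Dep mice were fasted but kept from torpor. Ampd3 P1 gave 51.3, 40.9, 52.4 and 44.4 TPM in Dep, all within the Mid range and all above Pre. Relative to Pre, 3 of 8 promoters were called, beside 25.8% of clusters, and all were higher in Dep, beside 13.7% of clusters. They were Ampd3 P1 (log2 fold change 2.50 ± 0.28, edgeR FDR 5.31e-07), Xdh (0.52 ± 0.13, edgeR FDR 0.00384) and Ampd3 P2 (0.36 ± 0.11, edgeR FDR 0.0215). Without TMM scaling, Xdh and Ampd3 P2 were not called.

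Between Mid and Dep, 0 of 8 promoters were called by edgeR's quasi-likelihood test and 0 by DESeq2, beside 2.03% of clusters. At an unadjusted p under 0.05 there was 1, Ampd1, with a log2 fold change of -0.21 ± 0.09. Ampd3 P1 had a log2 fold change of -0.42 ± 0.23 from Mid to Dep (edgeR FDR 0.324). Without Mid 6, whose level was the lowest, that value was -0.55 with an edgeR FDR of 0.0496.

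The mean levels of Ampd3 P1 fell in the order Mid (68.9 TPM), Dep (47.2), HiT (14.6), Fed (10.2), Pre (9.46) and Post (7.69). The only neighbours in that order whose ranges did not overlap were Dep and HiT. For Xdh the order was Mid (47.0 TPM), Dep (42.5), Fed (40.3), Pre (33.6), HiT (29.98) and Post (26.6), and every pair of neighbours overlapped. In unscaled TPM, Ampd1, Adssl1, Adsl and Ckm had their highest mean in Fed and their lowest in HiT. For Adssl1 the HiT mean (607.8 TPM) was close to that of Dep (610.0). It included HiT 4 at 328.9 TPM, whose 10 most abundant clusters held 40.3% of its tags. On scaled counts Adssl1 was not called from Pre to HiT (log2 fold change -0.23 ± 0.16) or from HiT to Mid (0.12 ± 0.14).

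**Figure D4:**
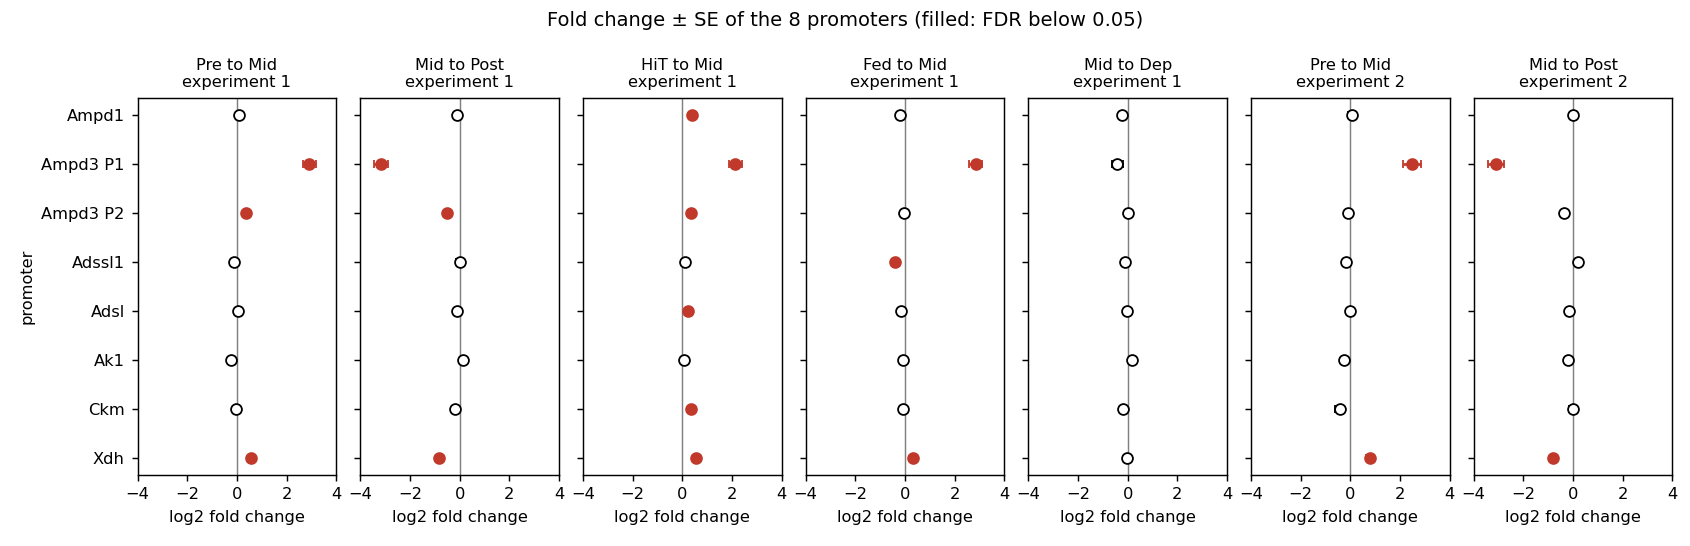
Log2 fold change ± SE of the 8 promoters in comparisons between conditions, from edgeR (filled points: FDR below 0.05; open points: not called). Ampd3 P1 stands at 2.92 from Pre to Mid and at -3.16 from Mid to Post, and the other promoters lie within 1 of 0 in these 2 comparisons.

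Experiment 2 repeated Pre, Mid and Post in other mice. Ampd3 P1 gave 8.89 and 10.8 TPM in Pre, 67.9, 25.9, 53.8, 64.4 and 54.0 in Mid, and 6.97, 6.01 and 6.53 in Post. Mid 10, at 25.9, was the lowest Mid library and still above all Pre and Post libraries. The log2 fold change was 2.49 ± 0.36 from Pre to Mid (edgeR FDR 0.00272) and -3.10 ± 0.31 from Mid to Post (edgeR FDR 0.000139). P1 again took the larger part of Ampd3 tags in Mid, 69.0 to 85.4%, against 42.0 to 43.7% in Pre and 36.5 to 42.6% in Post.

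Xdh gave 32.3 and 42.6 TPM in Pre of experiment 2, 69.1, 68.2, 57.8, 56.0 and 62.1 in Mid, and 41.5, 30.6 and 40.8 in Post, with no overlap of Mid with either. Its log2 fold change was 0.80 ± 0.16 from Pre to Mid (edgeR FDR 0.0108) and -0.81 ± 0.13 from Mid to Post (edgeR FDR 0.0022). Without Pre 5 the rise was 0.64 with an edgeR FDR of 0.126. Ampd3 P1 and Xdh were the 2 of 8 promoters called in each of these comparisons, beside 9.74% of clusters from Pre to Mid (5.30% higher in Mid) and 16.4% from Mid to Post (8.65% lower in Post). Ampd3 P2 was called in neither. Its log2 fold change from Pre to Mid was -0.08 ± 0.13 (edgeR FDR 0.742), against 0.35 ± 0.10 in experiment 1. From Mid to Post Ampd3 P2 just missed (-0.36 ± 0.11, edgeR FDR 0.0508).

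Ak1 and Adssl1, which were not called in experiment 2, had Pre and Mid ranges that did not overlap. Only 2 Pre libraries entered this, and the share of all clusters with such ranges was not computed. Ak1 gave 422.4 and 425.2 TPM in Pre and 302.3 to 378.1 in Mid (log2 fold change -0.24 ± 0.10, edgeR FDR 0.168). Adssl1 gave 925.6 and 939.2 TPM in Pre and 706.5 to 856.6 in Mid (-0.18 ± 0.11, edgeR FDR 0.336). Ckm had a log2 fold change of -0.43 ± 0.18 (edgeR FDR 0.179) with overlapping ranges. Each of these 3 values was negative and did not pass.

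The sequencing lanes of experiment 2 ran partly with the groups, since both Pre libraries were on 1 lane and all Post libraries on the other. Mid libraries were on both lanes. With lane in the model, Ampd3 P1 kept log2 fold changes of 2.46 (edgeR FDR 0.00715) and -3.21 (edgeR FDR 0.0029), and Xdh of 0.78 (edgeR FDR 0.0239) and -0.89 (edgeR FDR 0.0391).

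Tests of the difference between the experiments called 0 of 8 promoters from Pre to Mid and 0 of 8 from Mid to Post, by edgeR's quasi-likelihood test and by its likelihood ratio test, beside 0% of all clusters in the quasi-likelihood test. At an unadjusted p under 0.05 there was 1 in each, Ampd3 P2 with a difference of -0.41 ± 0.19 in log2 fold change and Ak1 with -0.38 ± 0.14. For Ampd3 P1 the difference was -0.40 ± 0.54 from Pre to Mid and for Xdh 0.27 ± 0.17.

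Levels, as opposed to changes, differed between the experiments for 2 members. The Pre mean of Ckm was 1217 TPM in experiment 1 and 7733 in experiment 2, a ratio of 6.36 that 0.97% of 10412 promoters reached or passed. For Ak1 the means were 116.5 and 423.8 TPM, a ratio of 3.64 reached or passed by 2.58% of promoters. The other 6 had ratios of 1.04 to 1.25. Summed markers in Pre were 21101 to 28410 TPM (fast list) and 13449 to 15769 (slow list) in experiment 1 and 33507 to 35063 and 23395 to 27942 in experiment 2. Mice, platform, experiment and any difference in mapping cannot be told apart here.

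Other genes of nucleotide and high-energy phosphate metabolism were read from 8 lists of 84 genes, of which 53 had a cluster, giving 56 promoters. From Pre to Mid 6 rose and 12 fell, 18 of 56 beside 15.4% of all clusters called higher and 14.8% called lower. Naming was limited to promoters that changed from Pre to Mid and in the opposite direction from Mid to Post. The largest such changes were in creatine and mitochondrial exchange genes.

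In the creatine list 1 of 5 promoters rose and 2 fell. Gamt, which makes creatine, fell from 5.39 to 8.22 TPM in Pre to 1.76 to 3.49 in Mid (log2 fold change -1.09 ± 0.18, edgeR FDR 4.39e-05), and rose from Mid to Post (0.95 ± 0.18). Ckb, the brain-type creatine kinase, fell from 10.5 to 17.9 TPM to 4.10 to 7.19 (-1.13 ± 0.17, edgeR FDR 2e-05) and rose in Post (0.87 ± 0.17). Slc6a8, the creatine transporter, rose (0.37 ± 0.13, edgeR FDR 0.0352) with overlapping ranges and fell in Post (-0.49 ± 0.13). Gamt, Ckb and Slc6a8 did not pass in experiment 2, where their log2 fold changes from Pre to Mid were -0.55 ± 0.55, -0.57 ± 0.30 and 0.10 ± 0.11.

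Among 8 promoters of mitochondrial ATP and ADP exchange, 2 rose and 1 fell. Slc25a25, an ATP-magnesium and phosphate carrier, fell from 3.35 to 6.01 TPM in Pre to 1.09 to 3.08 in Mid (-1.27 ± 0.45, edgeR FDR 0.0322) and rose in Post (1.48 ± 0.44). In experiment 2 it changed in the same directions (-1.36 ± 0.37, edgeR FDR 0.0417, and 1.40 ± 0.32, edgeR FDR 0.0145). Slc25a5, an ADP/ATP translocase, rose from 22.8 to 34.2 TPM to 25.3 to 54.5 (0.69 ± 0.16, edgeR FDR 0.00191) and fell in Post (-0.93 ± 0.16), and it was also called in experiment 2 (0.40 ± 0.11, edgeR FDR 0.0489). In leave-one-out fits the fall of Slc25a25 lost its call in 7 of 28.

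In purine salvage 2 of 6 promoters fell, among them Dguok, mitochondrial deoxyguanosine kinase. Dguok went from 26.5 to 34.5 TPM in Pre to 15.3 to 23.2 in Mid (-0.48 ± 0.08, edgeR FDR 5.29e-05), with no overlap, and rose to 30.4 to 40.4 in Post. It was called in both comparisons of experiment 2 (-0.44 ± 0.10 and 0.61 ± 0.09). De novo synthesis had 1 of 10 promoters up, Adss, the non-muscle counterpart of Adssl1 (0.43 ± 0.14, edgeR FDR 0.0248), and 1 down. Adss did not pass in experiment 2 (0.42 ± 0.16, edgeR FDR 0.127).

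Extracellular nucleotide genes had 1 of 6 promoters up and 1 down. Entpd1, which hydrolyses extracellular ATP and ADP, rose (0.44 ± 0.11, edgeR FDR 0.00258). A promoter of Slc29a1, an equilibrative nucleoside transporter, fell from 12.2 to 15.6 TPM in Pre to 7.36 to 10.6 in Mid (-0.52 ± 0.11, edgeR FDR 0.00053) and was also called in experiment 2 (-0.81 ± 0.14, edgeR FDR 0.00654). Entpd1 was not called in experiment 2 (0.35 ± 0.14, edgeR FDR 0.15).

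In nucleotide breakdown 1 of 9 promoters rose and 1 fell, and both belonged to Nt5c3, a cytosolic 5′-nucleotidase. The promoter that also rose again in Post fell by 0.25 ± 0.09 on the log2 scale (edgeR FDR 0.032), while the other rose by 0.66 ± 0.19 (edgeR FDR 0.00827). That other promoter was outside the naming rule and is given because it is the second promoter of Nt5c3. Of 6 promoters of other nucleotide kinases 1 fell, Nme1, a nucleoside diphosphate kinase (-0.32 ± 0.11, edgeR FDR 0.0276). Of 6 promoters of AMPK, the kinase that senses AMP, 3 fell, among them Prkaa1, a catalytic subunit (-0.35 ± 0.11, edgeR FDR 0.0173). In experiment 2, Prkaa1 (-0.15 ± 0.20, edgeR FDR 0.703) and Nme1 (-0.33 ± 0.16) did not pass, nor did the named Nt5c3 promoter (-0.06 ± 0.16). The other Nt5c3 promoter was called there (0.93 ± 0.19, edgeR FDR 0.0148). In leave-one-out fits of experiment 1 the named Nt5c3 promoter lost its Pre to Mid call in 7 of 28. Nme1 and Slc6a8 lost it in 6 each, Adss in 3 and Prkaa1 in 2. Apart from Slc25a25, the other named promoters kept that call in these fits. Under other alternatives Entpd1 and Slc25a5 also lost it, with an edgeR or DESeq2 FDR of up to 0.206 and 0.0564. From Mid to Post, Entpd1 lost its call in 6 and Adss in 1.

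From Mid to Post 13 of the 56 promoters rose and 7 fell, beside 17.5% of all clusters in each direction. Mid was lower than Fed at 17 and higher at 7, beside 18.6% and 16.6%. Relative to HiT, Mid was lower at 21 (21.8% of all clusters) and higher at 8 (19.2%), including 5 of 6 extracellular nucleotide promoters that were lower in Mid. The macrophage and slow muscle values of the HiT libraries given above stand beside this count too. In experiment 2, 2 rose and 3 fell from Pre to Mid, beside 5.30% and 4.44% of all clusters.

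**Figure D5:**
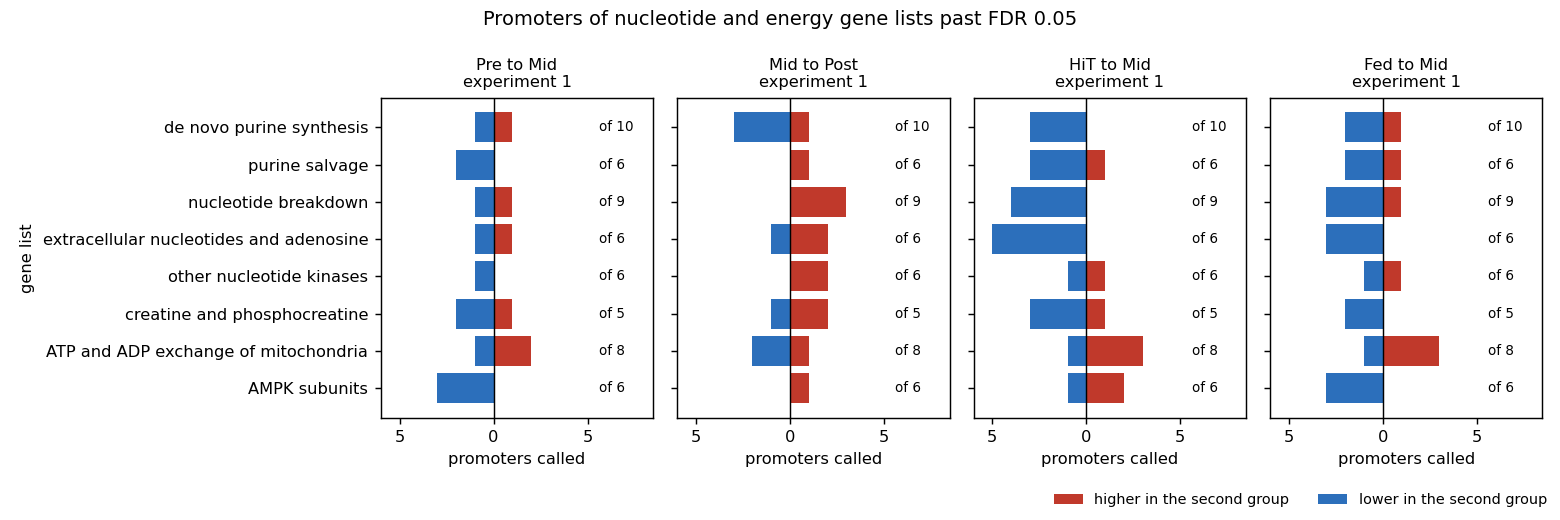
Number of promoters called higher (red, to the right) and lower (blue, to the left) in the group named last, for each of 8 gene lists in 4 comparisons of experiment 1, with the number of promoters tested at the right of each row. From Pre to Mid no list had more than 3 promoters called, while from HiT to Mid 5 of 6 extracellular nucleotide promoters were lower in Mid.

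The promoters of other genes whose log2 level across the 28 libraries of experiment 1 were most like Ampd3 P1 were Trim63 (Pearson r = 0.97), Lmod2 (0.97) and Synj2 (0.96). Trim63, a muscle ubiquitin ligase, ranged from 130.1 to 185.2 TPM in Pre, 254.8 to 1195 in Mid, 99.9 to 144.4 in Post, 189.8 to 427.2 in HiT, 149.4 to 225.1 in Fed and 375.2 to 1040.1 in Dep. For Xdh the most alike were Sh2d3c (0.91), Tns1 (0.90) and Lims2 (0.90). For Ampd3 P2 they were Naa50 (0.84), Vldlr (0.82) and Speg (0.79). These values describe the 28 libraries, which share their conditions, and carry no test.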

How the data were processed

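CAGE libraries (nAnT-iCAGE, which sequences capped 5′ ends without amplification) of 38 soleus samples were mapped by the authors to mm10 with BWA and HISAT2, and nearby tag starts were merged into clusters. Column names held bwa in experiment 1 only, and the methods do not say which mapper served which libraries. Per the labels and the study's methods, experiment 1 was sequenced on NextSeq and experiment 2 on HiSeq. The deposited tables hold raw tag counts per cluster and TPM (tags per 1000000 tags, made by the authors from those counts). One or both muscles of a mouse entered a sample.

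From the counts, edgeR 4.0.16 in R 4.3.3 was run with TMM scaling and the quasi-likelihood F test, in 1 fit of the 28 libraries of experiment 1 and another of the 10 of experiment 2, over all clusters with any tag (10776 and 10816), with Benjamini-Hochberg adjustment. The study used edgeR with TMM. Ranges in TPM come from the deposited values, and fold changes come from the scaled counts, with TMM factors of 0.6788 to 1.212 in experiment 1. The promoter ratio of Ampd3 used TPM + 0.1. DESeq2 1.42.0, other scalings, filters and left-out libraries were run as alternatives. The procedure was tested on simulated data for Pre to Mid of experiment 1: of 200 promoters changed by a log2 of 1 among 10776, 86.5% were recovered, with 6 false calls. Columns not mapped to a sample numbered 0.

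All 8 member promoters are described. Pathway genes were named, at most 12, where they were called from Pre to Mid and oppositely from Mid to Post, by summed size of change, and likeness was computed for the 3 members with the largest change. Members, lists and tests were chosen with earlier results of these data known. RefSeq promoter windows (GRCm38.p6) run from 250 bases before to 50 after a start.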

Additional observations from a re-analysis of the deposited data

How the results depend on the processing

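Of 3016 values recomputed for 104 results on the members, 2950 kept their side of the threshold, 45 lost a call and 21 gained one. Calls that reversed direction numbered 0. Some values near 0 that were not called changed sign, such as Adssl1 from Mid to Post in experiment 1 (-0.099 to 0.067 in leave-one-out fits). Of 912 values for 24 results on the named pathway promoters, 855 kept direction and side of the threshold and 57 lost a call. The calls of Ampd3 P1 and Xdh from Pre to Mid and from Mid to Post in experiment 1 held under every alternative run, with edgeR or DESeq2 FDR of up to 0.00018 and 5.02e-05 for Ampd3 P1 and up to 0.0441 and 0.000629 for Xdh. Causes below were not tested.

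Without TMM scaling the members called numbered 1 in place of 3 from Fed to Mid, 0 in place of 1 from Pre to Fed and 1 in place of 3 from Pre to Dep, and the pathway promoters called numbered 6 in place of 18 from Pre to Mid, 8 in place of 20 from Mid to Post, 13 in place of 29 from HiT to Mid and 14 in place of 24 from Fed to Mid. That setting moved the median log2 fold change of all clusters by more than 0.1 from Fed to Mid (to -0.12), Pre to Dep (to -0.18) and Pre to HiT (to -0.13), and by less in the other comparisons. From Pre to Mid it called 534 clusters higher and 924 lower, and upper-quartile scaling 1282 and 2308, where TMM gave 1659 and 1594. With only the 2 groups compared, the members called were 1 from Fed to Mid and 0 from Pre to Fed, and the pathway promoters 14 from Fed to Mid. From Pre to HiT the members called were 5 with upper-quartile scaling and 1 with the fast muscle score.

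Leaving out a library gave 1 to 4 members called from Fed to Mid (1 without Mid 1), 0 to 1 from Mid to Dep (1 without Mid 6), 1 to 4 from Pre to HiT (1 without Pre 2), 0 to 2 from Pre to Fed (0 without Pre 1, Pre 3, Fed 1 or Fed 2, and 2 without Fed 3) and 1 to 2 from Pre to Mid in experiment 2 (1 without Pre 5). For pathway promoters it gave 9 to 19 from Pre to Mid (9 without Pre 2), 12 to 22 from Mid to Post (12 without Post 1), 23 to 32 from HiT to Mid and 13 to 25 from Fed to Mid (13 without Fed 2). The Ampd3 promoter difference stayed between 2.32 and 2.66, and was 2.36 with a pseudocount of 1 TPM. The likeness values were also computed on log2 of TPM + 1, chosen after seeing the data, and lay between 0.85 and 0.97.

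Replicate numbers did not pair the samples. Over 60 pairs of libraries with the same number the median correlation of their deviations was -0.03, and 19 exceeded 0.1. Over 260 pairs with different numbers the median was 0.02, and 100 exceeded 0.1. With the replicate block the members called were 1 from Fed to Mid and the pathway promoters 11 from Pre to Mid and 12 from Fed to Mid, and Xdh and Adssl1 from Fed to Mid and Adsl from HiT to Mid were the members that lost a call. No paired analysis was possible in experiment 2 because its Mid libraries share no number with Pre or Post.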

Other observations

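Some member genes also had clusters inside the gene, more than 500 bp from an annotated 5′ end, which were not counted as promoters. Ckm had 7, whose summed level was 78.2 to 132.4 TPM in experiment 1 and 124.7 to 237.7 in experiment 2, which is 6.28 to 19.1% and 2.26 to 4.14% of the start cluster. Ak1 had 1, at 14.7 to 24.97 TPM in experiment 1 and 31.9 to 64.8 in experiment 2. Adsl had 1, at 1.02 to 3.39 and 8.34 to 13.6 TPM. Neutrophil markers, 4 of 6 genes with a cluster, summed to at most 1.74 TPM in experiment 1 apart from 1 Dep library at 116.8 TPM.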
